A study of Mus musculus with 4 samples.

Results

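Matrix metalloproteinases (MMPs) and tissue inhibitors of metalloproteinases (TIMPs) were followed through the cell types of the mouse aorta. The members were listed by gene symbol and not by their measured values. They were the 7 proteases Mmp2, Mmp3, Mmp8, Mmp9, Mmp12, Mmp13 and Mmp14 and the 3 inhibitors Timp1, Timp2 and Timp3, 10 of the 31053 genes counted, and all 10 were found. MMPs are zinc-dependent endopeptidases that cut collagens, elastin and other proteins of the extracellular matrix. Most are secreted as inactive proenzymes and are switched on when the propeptide is cut away, whereas MMP14 stays in the plasma membrane. TIMPs bind the active site of the mature enzyme and block it. In the arterial wall these proteases are known for matrix turnover during remodelling and for thinning of the fibrous cap of atherosclerotic plaques.

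The study used single-cell RNA sequencing to ask how loss of Nrf2 transcriptional activity and experimental atherosclerosis change the cells of the aorta. Aortic arches of male mice, with their main branches and the perivascular tissue, were pooled by group before digestion and each group gave 1 library. Lox_CTR and KO_CTR each held 4 mice, which had been given saline and a standard diet, and Lox_HFD and KO_HFD each held 3 mice, which had been put on a high-fat diet for 21 weeks as part of an induction of atherosclerosis. All mice were 3 months old at the start. The genotype label Nrf2Cdh5Lox marks the floxed Nrf2 control mice, and Nrf2Cdh5tKO marks mice in which Cre driven by the Cdh5 promoter, active in endothelium and in a portion of hematopoietic cells, excises exon 5 of Nrf2 (Nfe2l2). The diet was 1 part of that induction and its own share cannot be told apart, and each group is 1 library. No test between groups was run, and pooling both genotype labels would set 2 libraries against 2. A ratio between libraries is therefore given with a 95% interval that covers counting error only, and no p-value.

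The 4 libraries held 98754487 (Lox_CTR), 43717402 (KO_CTR), 12276546 (Lox_HFD) and 24184211 (KO_HFD) unique molecular identifiers (UMIs), and the cell filter kept 14148 of 15599 barcodes, from 1020 in Lox_HFD to 7890 in Lox_CTR. Cells were assigned to a type by how many of its fixed marker genes had a UMI, and none of the 10 members was such a marker. Of the kept cells 7023 were fibroblasts, 1954 smooth muscle cells, 1267 macrophages, 155 endothelial cells, 132 neutrophils and 92 classical monocytes, with 1474 cells in no type and 748 matching several. Ptprc, a pan-leukocyte gene not used for the assignment, had a UMI in 88.9% of macrophages and 97.0% of neutrophils, against 3.29% of fibroblasts. Pairs of libraries shared 1 to 7 cell barcodes. Nfe2l2 in endothelial cells was at 185 and 184 CPM (UMIs scaled to 1000000 per cell type and library) in Lox_CTR and Lox_HFD and at 385 and 359 in KO_CTR and KO_HFD. The level in endothelial cells was thus not lower in the KO libraries. In macrophages Nfe2l2 was at 443 and 492 CPM in Lox_CTR and Lox_HFD and at 492 and 475 in KO_CTR and KO_HFD. Whether counts from the 3′ end can show the excision of exon 5 was not tested, so these levels do not decide on the labels. By quantitative PCR, the study reported a lower level of the excised exon in bone marrow-derived and liver macrophages of mice with this excision. The KO libraries are called by their labels throughout.

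Mmp13, Mmp12, Mmp3 and Mmp8 lie in this order in 1 cluster of MMP genes on chromosome 9. These 4 members span 296 kb from the start of Mmp13 to the end of Mmp8 in GRCm38. Mmp1b, Mmp1a and Mmp10 lie among them, and Mmp27, Mmp20 and Mmp7 follow after Mmp8. The 4 members are at chr9:7272514-7283331, chr9:7344381-7369499, chr9:7445822-7455975 and chr9:7558456-7568485, all on the plus strand. The other members are dispersed, with Mmp2 at chr8:92827291-92853420, Mmp9 at chr2:164940780-164955850, Mmp14 at chr14:54431612-54445364, Timp1 at chrX:20870166-20874735, Timp2 at chr11:118301069-118355740 (minus strand) and Timp3 at chr10:86300372-86349506. The 4 members on chromosome 9 were counted in 3 different kinds of aortic cell, as described below. The 250 bases before their transcription starts (RefSeq, GRCm38.p6, plus strand, 5′ to 3′) are therefore shown together. Capitals mark an AP-1 motif (TGANTCA, which reads as the same motif on both strands) and a TATA box (TATAAA, searched on both strands).
Mmp13, chr9:7272264-7272513: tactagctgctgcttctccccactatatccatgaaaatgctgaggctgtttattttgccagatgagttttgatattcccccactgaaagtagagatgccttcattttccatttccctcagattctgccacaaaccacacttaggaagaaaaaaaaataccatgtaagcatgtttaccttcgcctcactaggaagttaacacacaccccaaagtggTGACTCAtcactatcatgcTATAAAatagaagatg
Mmp12, chr9:7344147-7344396: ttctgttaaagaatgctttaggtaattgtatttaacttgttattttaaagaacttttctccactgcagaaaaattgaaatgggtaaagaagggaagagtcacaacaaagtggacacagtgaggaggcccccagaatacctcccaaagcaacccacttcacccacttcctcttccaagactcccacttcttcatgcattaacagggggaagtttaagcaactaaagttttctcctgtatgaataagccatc
Mmp3, chr9:7445572-7445821: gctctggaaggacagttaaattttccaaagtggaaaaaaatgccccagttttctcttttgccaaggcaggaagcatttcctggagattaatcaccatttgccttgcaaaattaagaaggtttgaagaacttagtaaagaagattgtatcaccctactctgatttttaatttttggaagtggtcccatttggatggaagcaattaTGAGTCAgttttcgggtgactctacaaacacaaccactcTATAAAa
Mmp8, chr9:7558179-7558428: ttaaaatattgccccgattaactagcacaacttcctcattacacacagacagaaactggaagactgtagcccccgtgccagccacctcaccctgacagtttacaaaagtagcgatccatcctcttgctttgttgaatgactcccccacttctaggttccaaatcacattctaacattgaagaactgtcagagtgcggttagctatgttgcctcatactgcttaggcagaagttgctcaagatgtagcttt
The sequences of Mmp13 and Mmp3 each held both motifs, with the AP-1 motif starting at base -35 and -46 and the TATA box at base -16 and -7, counted back from the annotated start. Neither motif was found in the windows of Mmp8 and Mmp12 shown here, while a second RefSeq start of Mmp12 had an AP-1 motif at base -44. Among all 32851 promoter windows of this length 6.75% held the AP-1 motif and 12.4% the TATA box. Windows of Mmp14, Timp1, Timp2 and Timp3 held neither. A match describes letters only and is not evidence that a factor bound there.

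Among the cell types present in all 4 libraries, each of the 10 members had its highest mean level in 1 of 3 populations: fibroblasts, neutrophils or a small population of macrophages. Levels are CPM, given as the mean ± SD over the 4 libraries, which differ in genotype label and treatment. Each UMI stands for 1 captured RNA molecule read at its 3′ end, so the level does not scale with gene length. Fibroblasts held the highest level of Mmp2, Mmp3, Mmp14 and all 3 inhibitors, neutrophils that of Mmp8 and Mmp9, and the macrophages that resemble those of the aortic intima that of Mmp12 and Mmp13. The ranges of the first and second type over the 4 libraries did not overlap for Mmp2, Mmp8, Mmp9, Mmp12, Timp1, Timp2 and Timp3. They overlapped for Mmp3, Mmp13 and Mmp14. The share of all genes whose first and second type do not overlap is not given, so these ranges only describe the members.

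**Figure D1:**
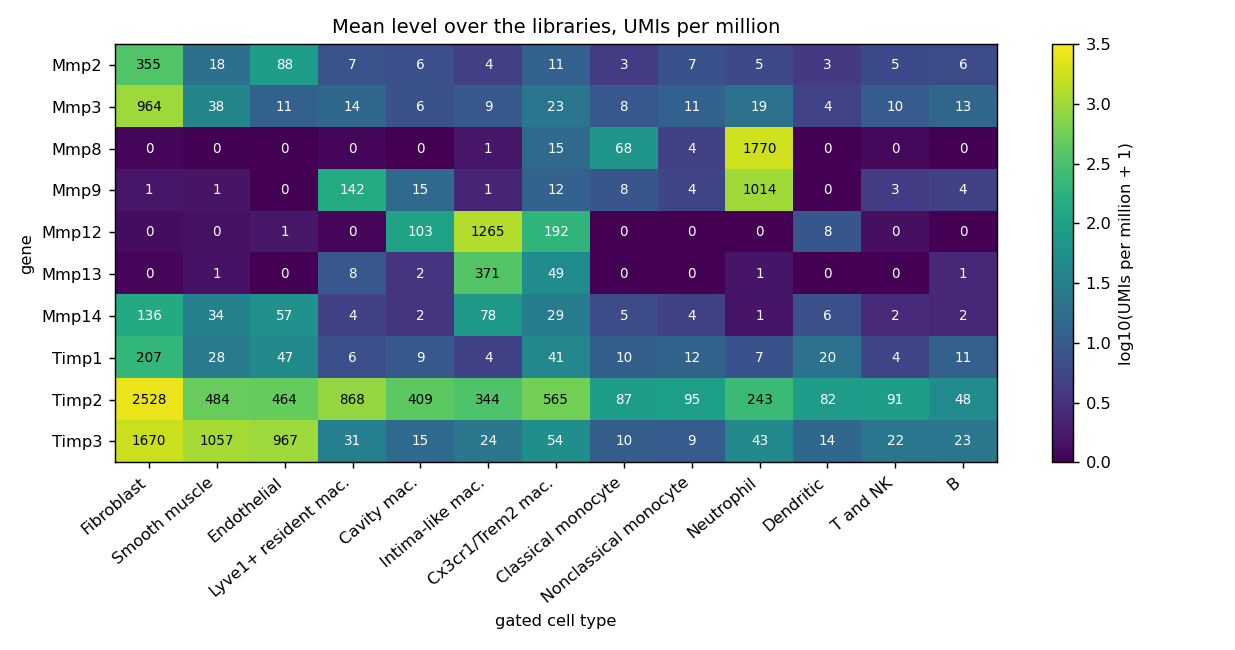
Mean level of the 10 members in 13 cell types, as colour on a log10 scale of CPM plus 1, averaged over the 4 libraries. Mmp8 and Mmp9 are brightest in neutrophils (1770 and 1014 CPM), Mmp12 and Mmp13 in the intima-like macrophages (1265 and 371), and the other members in fibroblasts.

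Fibroblasts carried the gelatinase Mmp2, the stromelysin Mmp3 and the membrane-bound Mmp14, which is known to activate pro-MMP2. Mmp2 stood at 358 CPM in Lox_CTR, 452 in KO_CTR, 326 in Lox_HFD and 284 in KO_HFD, with a mean of 355 ± 71.7 (SD, n = 4). It was spread over the population, with a UMI in 88.9% of fibroblasts. Endothelial cells followed at 87.5 ± 61.6 (SD, n = 4), and the lowest fibroblast library lay above the highest endothelial one. T and natural killer (NK) cells, in which Mmp2 transcripts are not expected, gave a floor of 6.58% of cells with a UMI at a median depth of 7197 UMIs, against 13278 in fibroblasts.

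Mmp14 was at 103 CPM in Lox_CTR, 153 in KO_CTR, 152 in Lox_HFD and 136 in KO_HFD in fibroblasts, a mean of 136 ± 23.2 (SD, n = 4), with a UMI in 62.9% of cells. The intima-like macrophages came second at 77.9 ± 32.3 (SD, n = 4). The highest library of these macrophages, Lox_HFD with 117, lay above the lowest fibroblast library, so the order of both types was not separated by the spread. Smooth muscle was at 33.6 ± 6.92 (SD, n = 4), below all 4 fibroblast libraries.

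Mmp3, which degrades proteoglycans and activates other MMPs, had the highest mean level of the 3 fibroblast proteases and the widest spread. It stood at 521 CPM in Lox_CTR, 343 in KO_CTR, 1484 in Lox_HFD and 1509 in KO_HFD, with a mean of 964 ± 619 (SD, n = 4). Both HFD libraries lay above both CTR libraries. Only 34.5% of fibroblasts had an Mmp3 UMI, against 7.59% of T and NK cells, and after thinning every cell to 2000 UMIs the shares were 21.4% and 1.75%. Thinning left out 159 fibroblasts and 20 T and NK cells. Its UMIs were concentrated, with 50% of the 62435 UMIs in 201 of 7023 fibroblasts (2.86%), whereas 50% of the Mmp2 UMIs took 1350 cells (19.2%). Cells with an Mmp3 UMI had an Mmp2 UMI in 89.1% of cases, against 88.7% of the remaining fibroblasts, at nearly the same median depth (13285 and 13260 UMIs). Timp1 had a UMI in 76.6% of the Mmp3-positive and 67.4% of the remaining fibroblasts.

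Fibroblasts were divided by small marker sets taken from earlier results of these data, and 60 cells that matched several sets were left out of the division. Most fibroblasts matched no set, and no value is given for them alone. Among the kinds, Mmp3 was highest in the 611 Comp/Fmod fibroblasts, at 845 CPM in Lox_CTR, 548 in KO_CTR, 1729.5 in Lox_HFD and 2671 in KO_HFD. In the 711 Pi16/Dact2/Dpp4/Ly6c1 fibroblasts Mmp3 was at 112, 80.7, 270.1 and 291 in the same order. In Lox_HFD the Comp/Fmod cells held 1056 of the 9451 Mmp3 UMIs of all fibroblasts. Every Comp/Fmod library lay above every Pi16/Dact2/Dpp4/Ly6c1 library. The inhibitors differed between these kinds in both directions. Timp1 was at 266 ± 54.8 in Comp/Fmod and 61.3 ± 1.55 in Pi16/Dact2/Dpp4/Ly6c1 fibroblasts (SD, n = 4), and Timp3 at 2651 ± 160.3 and 1109.9 ± 61.2 (SD, n = 4). Timp2 ran the other way, at 2599 ± 130.2 and 3416 ± 158 (SD, n = 4). The 4 libraries of both kinds did not overlap for any of these inhibitors. The share of all genes without overlap between these kinds is not given, so the separation of Mmp3 and the inhibitors is a description only.

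Fibroblasts were compared with smooth muscle, the other large non-leukocyte population, by edgeR's quasi-likelihood test on the UMIs summed by type and library. The library was a block, with Benjamini-Hochberg adjustment over 12453 genes. As perivascular tissue was included, the fibroblasts cannot be placed within the wall. All 6 members that passed the low-count filter were higher in fibroblasts, where 58.5% of all tested genes differed in either direction. A member that passes such a filter only through fibroblasts would have to differ. All 6 were also counted in smooth muscle, at 11.2 CPM (Mmp2) or more in each library. The log2 fold was 4.53 (SE 0.15, adjusted p = 7.07e-09) for Mmp3, 4.19 (SE 0.13, adjusted p = 4.91e-09) for Mmp2 and 1.92 (SE 0.11, adjusted p = 2.38e-07) for Mmp14. Among the inhibitors it was 2.99 (SE 0.13, adjusted p = 3.21e-08) for Timp1, 2.39 (SE 0.095, adjusted p = 2.05e-08) for Timp2 and 0.64 (SE 0.10, adjusted p = 0.00037) for Timp3. Timp3, an inhibitor that binds to the matrix, was thus the member nearest to equal between both types.

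Macrophages were divided into kinds by marker sets. Of the 1267, 832 were Lyve1+ resident macrophages, 123 intima-like, 113 cavity-like and 98 carried Cx3cr1 or Trem2 without meeting another set, while the rest met no set or 2 sets. The intima-like name rests on at least 4 of Acp5, Cd72, Ctss, Mpeg1 and Ccrl2. Genes with at least 50 UMIs in these cells were ranked by their fold against all other macrophages. H2-M2, Cd207, Ifnb1, Mmp12 and Mmp13 came first, ahead of the marker Acp5 itself. Genes entered this ranking only through the intima-like cells, so it is a description and not a test.

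Mmp12, the macrophage elastase, was at 1313 CPM in Lox_CTR, 1328 in KO_CTR, 1155 in Lox_HFD and 1265 in KO_HFD in the intima-like macrophages, a mean of 1265 ± 78.2 (SD, n = 4). The 4 libraries lay close together, although Lox_HFD held 7 of these cells and 3 of them carried 92.7% of its Mmp12 UMIs. Cx3cr1/Trem2 macrophages followed at 192 ± 80.0 and cavity-like macrophages at 103 ± 53.4 (SD, n = 4). In the 832 Lyve1+ macrophages a single Mmp12 UMI was counted, in KO_CTR. The other 3 libraries were at 0, which allows up to 0.736 CPM in Lox_CTR, 8.02 in Lox_HFD and 2.55 in KO_HFD (3 counts each). A UMI of Mmp12 was seen in 71 of 123 intima-like cells, 57.7% (exact Clopper-Pearson 95% interval 48.5 to 66.6%), against 0.337% of T and NK cells.

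Mmp13, the interstitial collagenase of rodents, was at 458 CPM in Lox_CTR, 615 in KO_CTR, 74.2 in Lox_HFD and 336 in KO_HFD in the same cells, a mean of 371 ± 228 (SD, n = 4). Lox_HFD was the low library, with 7 Mmp13 UMIs in its 7 cells, and it fell within the range of the Cx3cr1/Trem2 macrophages (48.9 ± 33.1, SD, n = 4). Mmp13 had a UMI in 67 of the 123 cells, 54.5% (45.2 to 63.5%). It was counted together with Mmp12 in 52 cells: 73.2% of the Mmp12-positive cells had Mmp13, against 28.8% of the cells without Mmp12, at median depths of 10568 and 10498 UMIs. Mmp14 was likewise seen in 53.5% of the Mmp12-positive and 21.2% of the remaining cells.

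Mmp9, the gelatinase B of leukocytes, had the opposite distribution among macrophages. It stood at 143 CPM in Lox_CTR, 167 in KO_CTR, 187 in Lox_HFD and 70.6 in KO_HFD in Lyve1+ macrophages, a mean of 142 ± 50.8 (SD, n = 4), with a UMI in 36.5% of the cells. In intima-like macrophages 2 UMIs were counted in all, both in 1 cell of KO_HFD. T and NK cells had a UMI in 2.70% of cells. Setting intima-like against Lyve1+ macrophages over all 4 libraries, 3 of 9 members counted (Mmp12, Mmp13 and Mmp14) were higher without overlap, as were 5.1% of 10696 genes. Another 2 (Mmp9 and Timp2) were lower without overlap, as were 12.2% of genes. Genes were counted here with at least 20 UMIs over both kinds. Mmp12 (1932 UMIs in intima-like cells) and Mmp9 (1042 in Lyve1+ cells) reached this through 1 kind only. Their separation was thus fixed by the filter, and these counts are a description.

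**Figure D2:**
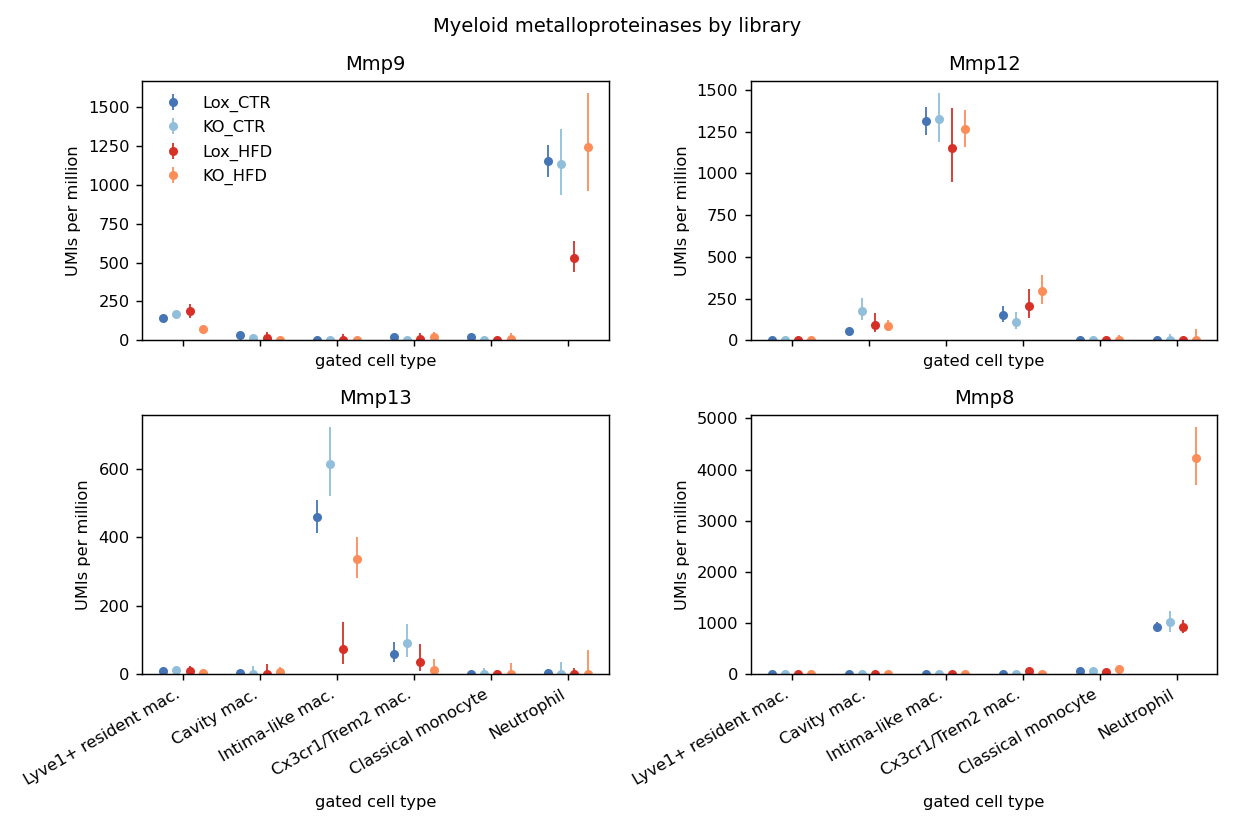
Level of Mmp9, Mmp12, Mmp13 and Mmp8 in CPM by myeloid cell type, with 1 point per library and bars for exact 95% Poisson intervals. Mmp12 and Mmp13 peak in intima-like macrophages, Mmp9 in neutrophils with a lower second level in Lyve1+ macrophages, and Mmp8 in neutrophils, where KO_HFD (7 cells) stands apart at 4235.

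In edgeR's quasi-likelihood test of Lyve1+ against all other macrophages, with the library as a block, 26.7% of 7599 genes differed (18.3% without Lox_CTR), and so did 5 of the 7 members tested. Mmp12 and Mmp14, with 1 and 24 UMIs in all Lyve1+ cells, entered the test through the other macrophages, where they are high, so their calls were fixed by the low-count filter. Mmp9 was higher in Lyve1+ cells by a log2 fold of 2.87 (SE 0.20, adjusted p = 4.71e-08). Mmp13 was lower, at a log2 fold of -4.41 (SE 0.24), a value that describes a call fixed by the filter. Timp2 was higher by 0.83 (SE 0.15, adjusted p = 0.000616), and this call was lost when each gate needed 1 marker more (log2 fold 0.38). Mmp3 (adjusted p = 0.364) and Timp3 (adjusted p = 0.721) did not pass. The cells were sorted into kinds by other genes of the same libraries, which themselves were left out of the test.

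Classical monocytes, the blood-derived precursors of many macrophages, differed from macrophages in the same test in 28.4% of 6452 genes. All 6 members that passed the low-count filter differed, but 5 of them passed it through 1 side, since Mmp9 and Timp3 had 12 and 15 UMIs in all monocytes, Mmp12 and Mmp13 had none, and Mmp8 had 9 in all macrophages. Without Lox_CTR, Mmp13 and Timp3 did not reach the filter. Timp2, counted on both sides, was higher in macrophages by a log2 fold of 2.89 (SE 0.23, adjusted p = 2.39e-06). Mmp9 was at 47.0 to 128 CPM in macrophages and 0 to 18.3 in monocytes, and the libraries did not overlap. The absence of Mmp12 and Mmp13 UMIs from the 92 monocytes allows up to 5.50 to 25.7 CPM per library (3 counts each). The neutrophil collagenase Mmp8 was at 0 to 7.98 CPM in macrophages and 44.9 to 103 in monocytes, again without overlap. Both genes passed the filter through 1 side, and the share of all genes without overlap between these types is not given. The separation of Mmp9 and Mmp8 is therefore a description only. Timp3 passed at 1.31 (SE 0.41, adjusted p = 0.0299), but not with DESeq2 (adjusted p = 0.0773), nor in edgeR fits without KO_CTR (adjusted p = 0.0931), KO_HFD (adjusted p = 0.0797) or Lox_HFD (adjusted p = 0.0793), and without Lox_CTR it did not reach the low-count filter.

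Neutrophils held the highest Mmp8 and Mmp9. Mmp8 was at 913 CPM in Lox_CTR, 1014 in KO_CTR, 919.7 in Lox_HFD and 4235 in KO_HFD, a mean of 1770.4 ± 1644 (SD, n = 4). The counting intervals of the first 3 libraries overlapped. KO_HFD had 7 neutrophils, of which 3 held 86.4% of its 221 Mmp8 UMIs. Mmp9 was at 1151, 1131, 530.1 and 1246 in the same order, a mean of 1014 ± 327 (SD, n = 4), with Lox_HFD the low library. A UMI was found in 80 of 132 neutrophils for Mmp8 (60.6%) and in 115 for Mmp9 (87.1%), at a median of 3469.5 UMIs per cell. Of the 80 cells with Mmp8, 76 also had Mmp9, which is 95.0% against 75.0% of the cells without Mmp8, whose median depth was lower (2972 against 3726.5 UMIs). Classical monocytes were second for Mmp8 at 68.2 ± 24.4 (SD, n = 4), with a UMI in 39.1% of 92 cells, and all 4 of their libraries lay below the lowest neutrophil library. Intima-like and Lyve1+ macrophages each held 1 Mmp8-positive cell.

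The inhibitors were broader. Timp2, which also takes part in the activation of pro-MMP2 by MMP14, had its highest level in fibroblasts at 2528 ± 262 CPM (SD, n = 4) and a UMI in 99.9% of them. Lyve1+ macrophages were second, at 936 in Lox_CTR, 879.5 in KO_CTR, 786 in Lox_HFD and 871 in KO_HFD, and these libraries lay below all 4 fibroblast libraries. Intima-like macrophages were at 344 ± 79.5 and T and NK cells at 91.5 ± 22.5 (SD, n = 4), so that Timp2 had a UMI in 50.3% of T and NK cells before and 18.7% after thinning to 2000 UMIs. The thinned shares were 95.3% in fibroblasts, 79.8% in Lyve1+ macrophages and 52.8% in intima-like macrophages. Mesothelial cells, 26 in all and absent from Lox_HFD, were at 2740 ± 175 (SD, n = 2) in the 2 CTR libraries, at the level of fibroblasts.

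Timp3 was the inhibitor of the non-leukocyte cells. It was at 1670 ± 118 CPM in fibroblasts, 1057 ± 73.4 in smooth muscle and 967 ± 536 in endothelial cells (SD, n = 4), and among the types present in all 4 libraries Cx3cr1/Trem2 macrophages came next at 53.7 ± 71.7. The few mesothelial cells were at 204 and 428 in Lox_CTR and KO_CTR. Fibroblast and smooth muscle libraries did not overlap, and endothelial libraries overlapped those of smooth muscle. Timp1, the inducible inhibitor, was at 223, 243, 159 and 201 CPM in fibroblasts of Lox_CTR, KO_CTR, Lox_HFD and KO_HFD, with a UMI in 70.6% of cells. Endothelial cells followed at 46.5 ± 48.9 and smooth muscle at 27.6 ± 4.72 (SD, n = 4).

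Summed over the 7 proteases and the 3 inhibitors, the ratio of MMP to TIMP UMIs differed widely between cell types. It was 0.0526 to 0.0747 in smooth muscle, 0.114 to 0.262 in Lyve1+ macrophages and 0.226 to 0.418 in fibroblasts over the 4 libraries. In intima-like macrophages it was 3.83 to 6.78 and in neutrophils 5.95 to 12.9. The 2 last types therefore held more protease than inhibitor UMIs in each library, and the 3 first types fewer. Within fibroblasts the ratio was 0.240 in Lox_CTR and 0.226 in KO_CTR, and 0.418 in both HFD libraries. RNA sums say nothing of proenzyme activation or of protein.

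**Figure D3:**
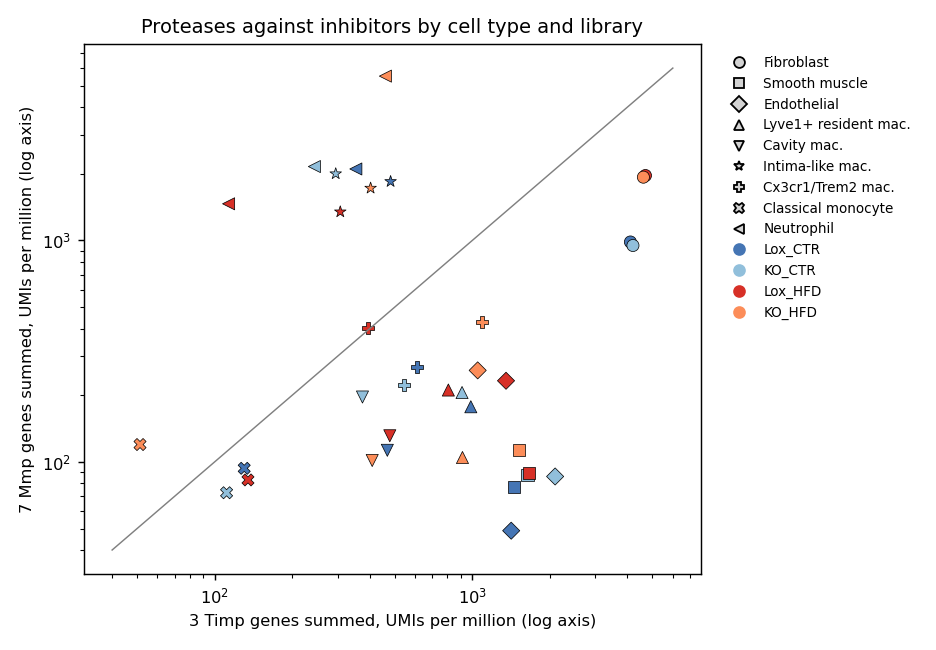
Summed level of the 7 MMPs against that of the 3 TIMPs in CPM, both axes logarithmic, with 1 point per cell type and library and a line where both are equal. Intima-like macrophages and neutrophils lie on the MMP side of the line in all 4 libraries, fibroblasts and smooth muscle on the TIMP side.

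The comparison of HFD with CTR asks how the members changed with experimental atherosclerosis, once for each genotype label, with 1 library on each side. Among the 6 members with at least 20 UMIs in each fibroblast library, Mmp3 moved most, with a log2 ratio of 1.51 (95% interval 1.48 to 1.55) between Lox_HFD and Lox_CTR and 2.14 (2.10 to 2.18) between KO_HFD and KO_CTR. It was the 1 member of 7 counted in both pairs that was more than 2-fold higher in both, as were 0.537% of 13218 genes (71 genes). The share of fibroblasts with 10 or more Mmp3 UMIs was 12.3% in Lox_CTR and 9.40% in KO_CTR, and 25.5% in Lox_HFD and 25.6% in KO_HFD. Without the 3 cells of each library with the most Mmp3 UMIs, a comparison chosen after the data were seen, the log2 ratios were 1.38 and 2.28.

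Within fibroblast kinds the Mmp3 ratios depended on few cells. In Comp/Fmod fibroblasts the log2 ratio of Mmp3 was 1.03 (0.93 to 1.13) under Nrf2Cdh5Lox and 2.28 (2.18 to 2.39) under Nrf2Cdh5tKO, and 0.74 and 3.30 without the 3 top cells of each library. In Pi16/Dact2/Dpp4/Ly6c1 fibroblasts it was 1.27 (1.09 to 1.45) and 1.85 (1.64 to 2.06), and -0.73 and 3.26 without these top cells. In smooth muscle a single cell of Lox_HFD held 23 of the 37 Mmp3 UMIs of that library, and ratios without it were not computed. The log2 ratio of Mmp3 in smooth muscle was 0.71 (0.19 to 1.19) and 2.34 (1.95 to 2.75). Its level was 28.0 CPM in Lox_CTR, 13.0 in KO_CTR, 45.9 in Lox_HFD and 65.9 in KO_HFD. T and NK cells, as background, were at 10.3, 6.69, 7.83 and 13.3 CPM in the same order. Immediate-early and stress genes, which respond to tissue digestion, summed to 19645 and 18041 CPM in fibroblasts of Lox_CTR and KO_CTR. In Lox_HFD and KO_HFD the sums were 18700 and 19145. Of these 14 genes, 3 were more than 2-fold lower in Lox_HFD than in Lox_CTR, as were 1052 of 14111 genes. Between KO_HFD and KO_CTR it was 0 of 14, against 527 of 13304 genes. Whether handling had a part in the Mmp3 levels was not tested.

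**Figure D4:**
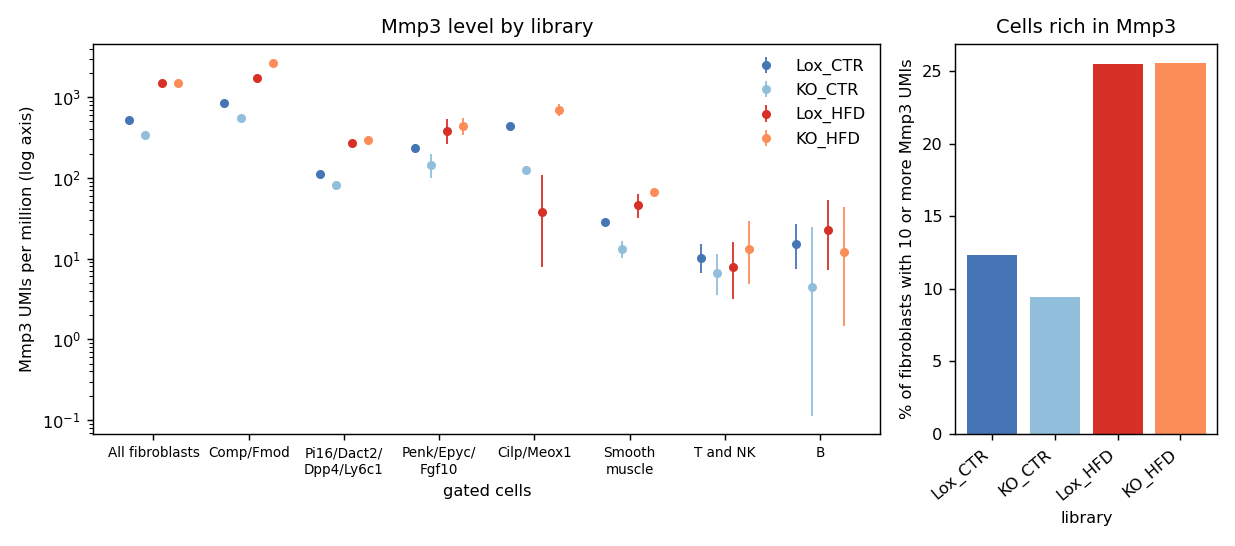
Left, level of Mmp3 in CPM on a log axis in all fibroblasts, 4 fibroblast kinds, smooth muscle, T and NK cells and B cells, with 1 point per library and exact 95% Poisson intervals. Right, percent of fibroblasts with 10 or more Mmp3 UMIs by library, at 12.3 and 9.40 in the CTR and 25.5 and 25.6 in the HFD libraries.

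The other fibroblast members moved less. Mmp2 had log2 ratios of -0.14 (-0.20 to -0.07) and -0.67 (-0.73 to -0.62), Timp1 of -0.49 (-0.58 to -0.39) and -0.28 (-0.34 to -0.21). Timp2 was higher in both pairs, at 0.25 (0.22 to 0.27) and 0.24 (0.22 to 0.26), and Timp3 at 0.19 (0.16 to 0.22) and 0.04 (0.02 to 0.07). Mmp14 went in opposite directions, at 0.56 (0.46 to 0.66) and -0.17 (-0.25 to -0.08). More than 2-fold different were 4 of 9 members under Nrf2Cdh5Lox, where 10.6% of genes were, and 1 of 7 under Nrf2Cdh5tKO, where 6.37% were. Beside Mmp3 the 4 were Mmp9, Mmp12 and Mmp13, each with at most 2 UMIs in Lox_HFD fibroblasts, so they rest on counts too small to rank.

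Between genotype labels the contrasts share these same 4 libraries. In CTR fibroblasts Mmp3 was lower in KO_CTR than in Lox_CTR, with a log2 ratio of -0.60 (-0.64 to -0.57), and in HFD fibroblasts it was 0.02 (-0.01 to 0.06). More than 2-fold different were 2 of 9 members in CTR (Mmp12 and Mmp13, with 27 and 26 UMIs in Lox_CTR fibroblasts and 2 and 1 in KO_CTR), against 7.13% of genes. In HFD it was 0 of 6 members, against 2.85% of genes. Mmp14 was higher in KO_CTR than in Lox_CTR fibroblasts by 0.56 (0.50 to 0.62) and lower in KO_HFD than in Lox_HFD by a log2 ratio of -0.16 (-0.28 to -0.05).

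In smooth muscle 0 of 6 members were past 2-fold between Lox_HFD and Lox_CTR, where 16.6% of genes were, and 2 of 6 between KO_HFD and KO_CTR, where 5.11% were. The 2 were Mmp3, given above, and Mmp2, at 30.2 CPM in KO_CTR and 14.3 in KO_HFD with a log2 ratio of -1.08 (-1.59 to -0.59). Timp3, the most abundant member in smooth muscle, had log2 ratios of -0.04 (-0.14 to 0.06) and -0.20 (-0.26 to -0.14). Timp2 had 0.63 (0.50 to 0.77) and 0.12 (0.02 to 0.21). In Lox_HFD a single one of the 68 smooth muscle cells held 154 of the 498 Timp2 UMIs, so the first value leans on that cell. The ratio without it was not computed.

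Endothelial cells were few, 19 to 68 per library. Timp3 was at 1070.3 CPM in Lox_CTR, 1681 in KO_CTR, 627 in Lox_HFD and 491 in KO_HFD, with both HFD libraries below both CTR libraries. Its log2 ratios were -0.77 (-1.08 to -0.47) and -1.77 (-2.15 to -1.42). Mmp2 went the other way, at 19.0, 52.3, 146 and 133 CPM in the same order, with log2 ratios of 2.94 (1.71 to 4.38) and 1.34 (0.29 to 2.44), on 7 to 27 UMIs per library. Mmp14 was at 10.9, 29.9, 75.7 and 113 CPM, again with both HFD libraries above both CTR libraries. The Lox_HFD value rests on 14 UMIs, 6 of them in 1 cell. The share of all genes whose HFD and CTR libraries separate in endothelial cells is not given, so the order of the libraries is a description only.

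In Lyve1+ macrophages Mmp9 was low in KO_HFD. The log2 ratio of Mmp9 was 0.39 (0.01 to 0.75) between Lox_HFD and Lox_CTR and -1.24 (-1.61 to -0.89) between KO_HFD and KO_CTR. The first value was 0.11 without the 3 cells of each library with the most Mmp9 UMIs and 0.17 after centring on the median gene, which was at 0.22 in that pair, so it is not set apart from 0. KO_HFD was the low library, also against Lox_HFD, with a log2 ratio of -1.41 (-1.88 to -0.93), and 21.3% of its Lyve1+ cells had an Mmp9 UMI against 38.6% to 50.9% in the other libraries. Immediate-early and stress genes summed to 14892 CPM in Lox_CTR and to 19075, 21528 and 21501 in KO_CTR, Lox_HFD and KO_HFD. The sum was thus lowest in Lox_CTR and nearly equal in both HFD libraries. Whether handling had a part in the Mmp9 levels was not tested. Past 2-fold were 3 of 7 members under Nrf2Cdh5Lox (23.4% of genes) and 3 of 7 under Nrf2Cdh5tKO (6.27% of genes). The first 3 were Mmp2, Timp1 and Timp3, each with at most 8 UMIs in Lox_HFD. The other 3 were Mmp9, Mmp13 and Timp1, of which Mmp9 alone passed when at least 50 UMIs were needed. Between genotype labels it was 0 of 7 members in CTR (9.82% of genes) and 1 of 4 in HFD (10.2% of genes), the 1 being Mmp9.

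In intima-like macrophages Mmp12 had log2 ratios of HFD to CTR of -0.19 (-0.48 to 0.10) and -0.07 (-0.27 to 0.14). The first was 0.57 with the mean over cells, -0.88 with 1 more gate marker and -2.89 without the 3 top cells of each library, so its direction is not settled, and the second was 0.21 without the top cells. Mmp13 had -2.63 (-3.95 to -1.57) and -0.87 (-1.22 to -0.52). The second Mmp13 ratio was 0.01 when each gate needed 1 marker more. In neutrophils Mmp8 had 0.01 (-0.24 to 0.26) and 2.06 (1.72 to 2.41), the first being 0.65 with the mean over cells and -1.24 without the 3 top cells of each library. Mmp9 had -1.12 (-1.42 to -0.82) and 0.14 (-0.32 to 0.59). With 7 cells in Lox_HFD intima-like macrophages and 7 in KO_HFD neutrophils, these values describe few cells.

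**Figure D5:**
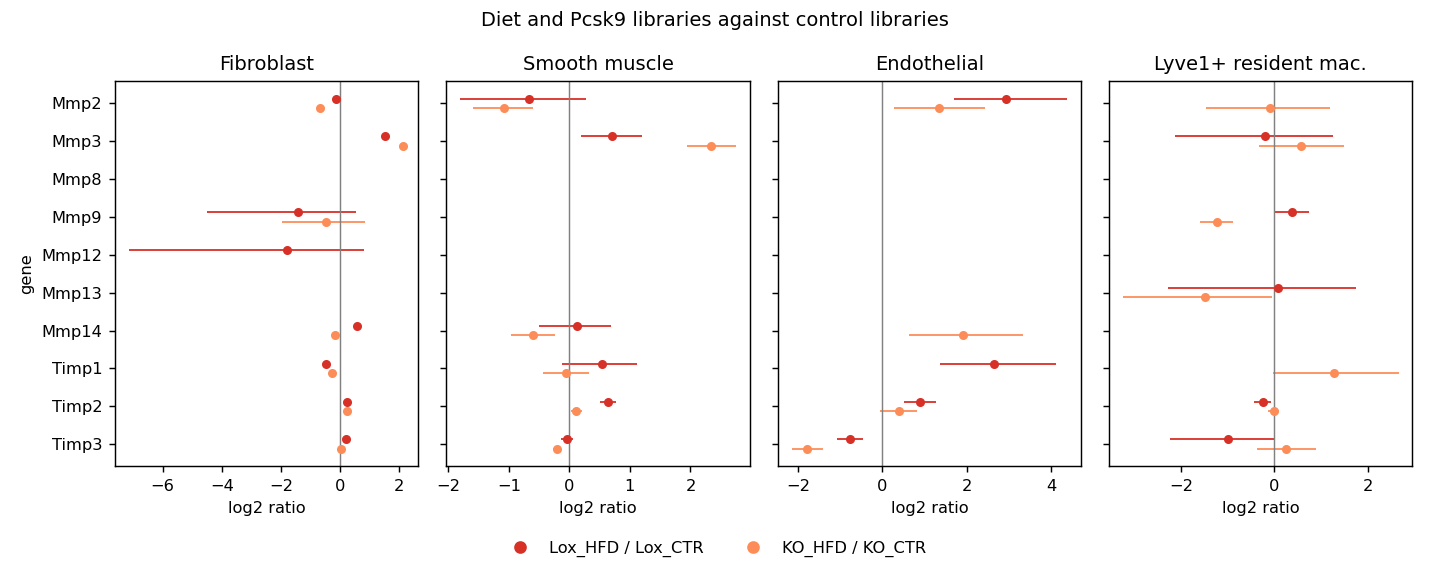
Log2 ratio of HFD to CTR for the members with at least 20 UMIs in fibroblasts, smooth muscle, endothelial cells and Lyve1+ macrophages, under each genotype label, with 95% counting intervals. Mmp3 lies above 0 in fibroblasts under both labels (1.51 and 2.14), and Mmp9 in Lyve1+ macrophages lies at 0.39 and -1.24.

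The remaining MMP family was sparse. Of 15 further MMP genes in the files 2 reached 50 CPM in any cell type, namely Mmp23 in fibroblasts (322) and Mmp19 in cavity-like macrophages (115), and 0 of 8 counted in fibroblasts were past 2-fold in the diet comparison under either label, where 10.6% and 6.37% of all genes were. Among 13 further inhibitors and cofactors 9 reached this level. Timp4 was at 300.1 in endothelial cells, but with a wide range of 26.6 to 676 over the 4 libraries. Reck, a membrane-anchored MMP inhibitor, was at 77.2 in fibroblasts, and Lrp1, a receptor that clears MMPs from the cell surface, at 1033 in fibroblasts. Lcn2, whose product binds MMP9, was at 11304 in neutrophils, the cells with the most Mmp9. Among 12 proteases and inhibitors of the activation cascade 11 reached it, with Plau (urokinase) at 149 in intima-like macrophages and Furin, which activates pro-MMP14, at 531 in cavity-like macrophages. Among 17 ADAM and ADAMTS proteases it was 11, led in fibroblasts by Adamts5 (679.5) and Adamts1 (444).

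Of 10 matrix substrates 9 were counted in fibroblasts, where their median log2 ratio of HFD to CTR was -0.27 under Nrf2Cdh5Lox and -0.91 under Nrf2Cdh5tKO, against 0.04 and -0.04 over all genes. Past 2-fold lower were 0 and 3 of the 9, and 1052 of 14111 and 527 of 13304 genes in all. Col1a1 and Col1a2 in this list also served to assign fibroblasts. Eln, the elastin gene and a substrate of MMP12, had log2 ratios of -0.10 and -1.46, and Col3a1 of -0.50 and -1.33.

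Similarity of pattern was measured as Pearson's r of log2(CPM + 1) over 40 sums of cell type and library, among 11632 genes. The sums share libraries and cell types, so r is a description. Mmp12 and Mmp13 had r = 0.85 with each other, and the genes nearest to them were Cd207 and Zmynd15 for Mmp12 (0.83 for Cd207) and Zmynd15 and Ms4a7 for Mmp13 (0.87 for Zmynd15). Mmp8 was nearest to Fcnb (0.94), Acod1 and Cd177, and Mmp9 to Tmcc1 (0.81), Cass4 and Hk3. Mmp3 was nearest to Serping1 (0.90), Mmp2 to Efemp1 (0.88) and Mmp14 to Stard13 (0.82). Among the inhibitors Timp1 was nearest to Cpxm1 (0.83), Timp2 to Serpinb6a (0.94) and Timp3 to Sparc (0.97).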

How the data were processed

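Single-cell libraries were 10x 3′ libraries, 1 per group. Per the labels and the study's methods, the authors aligned reads to mm10 with Cell Ranger 6.1.2 and deposited raw UMI counts per gene and barcode. Barcodes below 200 or above 6000 detected genes, or over 15% of UMIs from mitochondrial genes, were dropped. A cell was assigned to a type by a minimum number of its list of marker genes (6 of 9 for macrophages, 7 of 8 for fibroblasts, 6 of 7 for smooth muscle, 5 of 8 for neutrophils), and cells passing several types were left out. The minima were set after the distributions of marker numbers were seen. The members and lists were chosen with earlier results of these data known. The listed members were all named. For other lists, counts cover every gene, and names were taken from genes at 50 CPM or more. The genes most like a member were those with the highest r.

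Levels are UMIs of a type and library scaled to 1000000 (CPM), with exact Poisson intervals. Ratios have exact binomial intervals and shares Clopper-Pearson intervals, all at 95%. They cover counting error only. A ratio was counted with at least 20 UMIs over both libraries. Means over libraries needed 5 cells each. Types were compared with edgeR 4.0.16 (R 4.3.3), quasi-likelihood, on sums of at least 10 cells, with a library block and Benjamini-Hochberg adjustment. Gate markers were left out of the tests but not of library sizes. SE is the log2 fold over the root of F. The 4 libraries differ in group, so their spread includes group differences. Doublets called by Scrublet (at most 1.43% of fibroblasts, smooth muscle or macrophages) were left in. Free RNA was not removed, and Cep295nl, on the strand of Timp2 and overlapping it, had 455 UMIs. Alternatives were DESeq2 1.42.0, other filters, normalizations, gates, means over cells, and leaving out each library. No tables of the authors' comparisons were used. Computation used scanpy 1.11.5, scipy 1.17.1 and numpy 2.4.6 under Python 3.11.15, and plots matplotlib 3.10.9. A second component of the HFD treatment is not reported here.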

Additional observations from a re-analysis of the deposited data

Results flagged for a closer look

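In 8 cases the log2 ratio of HFD to CTR had opposite signs under Nrf2Cdh5Lox and Nrf2Cdh5tKO, with both counting intervals away from 0. The difference between labels was not tested, since each side is 1 library, and with many pairs examined some such cases can arise from single libraries. Mmp14 in fibroblasts was 0.56 and -0.17, Timp3 in Comp/Fmod fibroblasts 0.089 and -0.14, and Timp3 in Penk/Epyc/Fgf10 fibroblasts 0.54 and -2.10 (6 and 13 HFD cells). Mmp3 in Cilp/Meox1 fibroblasts was -3.54 and 2.46 and Timp1 in the same cells -1.93 and 1.68, on 5 and 16 HFD cells. Timp3 in all macrophages was -1.61 and 0.59, Timp2 in intima-like macrophages -0.61 and 0.50, and Mmp9 in Lyve1+ macrophages 0.39 and -1.24, of which the first was 0.11 without the 3 cells of each library with the most Mmp9 UMIs and 0.17 after centring on the median gene. What produced these differences was not tested.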

How the results depend on the processing

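Of 126 level values 123 moved by less than the spread over libraries. Of 150 edgeR values for members 145 kept their direction and side of the threshold. Of 113 ratios 88 stayed inside the counting interval of the main ratio. A ratio outside this interval need not have changed its direction or its side of 2-fold. Some of the exceptions follow, and their cause was not tested. With the mean over cells, Mmp12 in intima-like macrophages was 1452 CPM, and with 1 more gate marker 1776 (Mmp13 669.6). Mmp3 in fibroblasts under Nrf2Cdh5Lox was 1.47 with centring on the median gene, 1.33 with the mean over cells, 1.68 with the stricter gate and 1.38 without the top 3 cells, and under Nrf2Cdh5tKO 2.18 with centring and 2.28 without the top 3 cells. Removing top cells was chosen after seeing the data. Mmp12 in intima-like macrophages under Nrf2Cdh5Lox was 0.57 with the mean over cells, -0.88 with the stricter gate and -2.89 without the top 3 cells, and 0.21 without them under Nrf2Cdh5tKO. Mmp13 there under Nrf2Cdh5tKO was -0.48 with the mean over cells and 0.014 with the stricter gate. Timp3 in endothelial cells was -0.32 and -1.27 with the mean over cells and -2.29 with the stricter gate (Nrf2Cdh5tKO). Mmp8 in neutrophils under Nrf2Cdh5Lox was 0.65 with the mean over cells and -1.24 without the top 3 cells, and Mmp3 in Pi16/Dact2/Dpp4/Ly6c1 fibroblasts -0.73 without them. With at least 50 UMIs, 1 member in fibroblasts and 1 in Lyve1+ macrophages (Nrf2Cdh5tKO) passed 2-fold in the diet comparison and 0 between labels in CTR fibroblasts. At 1.5-fold it was 2 in fibroblasts (Nrf2Cdh5tKO), 3 in smooth muscle (Nrf2Cdh5Lox), 2 between CTR labels in smooth muscle and in Lyve1+ macrophages, and 3 between HFD labels in Lyve1+ macrophages. The shares of all genes past the fold at 1.5-fold or with at least 50 UMIs are not given, so these counts only describe the members. The Lyve1+ comparison called 2028 genes with edgeR, 1347 with DESeq2, 1394 with the stricter gate and 1304 (without Lox_CTR) to 2140.0 when 1 library was left out. No paired analysis was possible because each group has 1 library, whose number 1 pairs nothing between groups. Comparisons of cell types carried the library as a block throughout.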
